A study of Homo sapiens with 6 samples.

Results

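MDM2, FDXR and RPS27L are genes known to be induced by the transcription factor p53, and their transcripts were followed as H9 cells passed from G1 into S phase in the pluripotent state and after differentiation to endoderm. The table of 3' read ends holds 14686 genomic regions, and every region named for one of the 3 genes was taken, which gave 4 regions: 2 for MDM2, 1 for FDXR and 1 for RPS27L. The genes were chosen by their signal differences between the cell types or between G1/S and G1, so those differences are given as descriptions without a test.

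H9 is an established line of human embryonic stem cells (hESCs), used here at passage 51. The groups were day 6 endoderm cells in G1, G1/S and S, sampled at 0, 3 and 6 h, and day 0 hESCs in G1, G1/S and S, sampled at 0, 2 and 3 h, with 1 library each and all from this 1 line. Endoderm was made with activin A at 100 ng/ml in RPMI medium over 6 days, with fetal bovine serum at 0% for 24 h, 0.2% for the next 24 h and 2% afterwards, while hESCs grew on growth factor reduced matrigel in medium conditioned by mouse embryonic fibroblasts. Medium, serum, activin A and days in culture therefore differed along with cell type and cannot be told apart from it, and neither the event from which the hours count nor the way cells were brought into phase is given in the sources used here.

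The libraries hold 2502792 to 5389666 reads in endoderm and 4194957 to 6203079 reads in hESCs. Signal here means a read count over the size factor of its library, and 1 read is worth 0.591 (hESC S) to 1.71 (endoderm S). Each labelled cell type was checked against its markers. Over all tested regions limma called 6.9% higher and 7.6% lower in endoderm. Of 10 endoderm markers measured, 9 were higher in endoderm in limma and none lower, and their summed signal was 15557 to 30395 in endoderm libraries and 920.0 to 1161 in hESC libraries. Of 10 pluripotent cell markers measured, none was called higher and 3 were called lower in endoderm. Their sums were 2509 to 3385 in endoderm and 4013 to 4998 in hESCs. By sign alone 5 of the 10 were lower and 5 higher in endoderm, with a median log2 difference of 0.20. Of 10 measured markers of mesoderm, neuroectoderm, trophoblast and fibroblasts, 3 were higher (PAX6, NCAM1 and GATA3) and 4 lower in endoderm. The sums over the 10 were 2234 to 3892 in endoderm and 5606 to 9536 in hESCs. Most of the hESC sums came from THY1, at 3340, 5536 and 4288 (G1, G1/S, S), and COL1A1, at 1712, 3482 and 3479. Both are among the 4 called lower, so the sums say little about the other markers. None of the measured markers was at 0 in any library, and the part of other cell types in the differences below was not tested. RNA was read from whole populations, so fewer cells of a type and less RNA per cell cannot be told apart.

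The p53 protein is held at a low level by MDM2, a ubiquitin ligase that binds p53 and marks it for degradation. When DNA damage or other stress frees p53 from MDM2, p53 binds a response element of paired decamers near its target genes and raises their transcription, MDM2 included, so that MDM2 closes a negative feedback loop. Targets serve cell-cycle arrest, DNA repair, apoptosis and metabolism. FDXR encodes ferredoxin reductase, a mitochondrial flavoprotein that passes electrons from NADPH to ferredoxins, which supply iron-sulfur cluster assembly and steroid synthesis. RPS27L encodes a ribosomal protein, a paralog of RPS27 that is known to bind MDM2.

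The promoter sequences are shown because the 3 genes are linked by the p53 response element. They are the 250 bases before the RefSeq transcript start, on GRCh38.p14, with capitals marking stretches of 20 bases that match 2 adjacent decamers of the element with at most 3 mismatches and no spacer. The element reads the same on both strands. For MDM2 the internal promoter is shown (chr12:68808767-68809016, plus strand), for FDXR chr17:74872995-74873244 (minus strand) and for RPS27L chr15:63157478-63157727 (minus strand).

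MDM2: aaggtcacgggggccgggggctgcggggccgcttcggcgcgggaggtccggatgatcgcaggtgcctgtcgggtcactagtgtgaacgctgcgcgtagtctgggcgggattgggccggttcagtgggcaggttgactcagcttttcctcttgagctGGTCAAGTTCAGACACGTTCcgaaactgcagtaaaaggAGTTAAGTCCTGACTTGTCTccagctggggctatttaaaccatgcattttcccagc

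FDXR: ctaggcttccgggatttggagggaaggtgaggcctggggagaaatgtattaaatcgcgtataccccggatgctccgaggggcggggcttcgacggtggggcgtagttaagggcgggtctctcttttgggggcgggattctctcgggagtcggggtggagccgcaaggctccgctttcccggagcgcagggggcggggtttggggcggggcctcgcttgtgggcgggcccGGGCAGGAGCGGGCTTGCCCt

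RPS27L: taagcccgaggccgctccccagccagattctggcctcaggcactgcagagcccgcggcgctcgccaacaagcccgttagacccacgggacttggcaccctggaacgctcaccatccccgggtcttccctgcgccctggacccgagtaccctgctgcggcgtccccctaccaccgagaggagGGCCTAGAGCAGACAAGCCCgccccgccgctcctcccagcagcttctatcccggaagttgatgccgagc

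The MDM2 internal promoter holds a pair of matches. The stretch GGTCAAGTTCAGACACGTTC has 2 mismatches and begins 94 bases before the start, and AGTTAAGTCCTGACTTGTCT has 3 mismatches and begins 56 bases before it. A second RefSeq start 7 bases downstream has the same pair in its window, while the windows at the first MDM2 promoter have at least 5 mismatches throughout. FDXR has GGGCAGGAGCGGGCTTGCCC with 3 mismatches, beginning 21 bases before the start, and its other RefSeq window has at least 4. RPS27L has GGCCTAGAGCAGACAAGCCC with 3 mismatches, beginning 69 bases before the start. A match with at most 2 mismatches was found in 0.649% of all 35116 windows of 300 bases around RefSeq starts, and one with at most 3 in 5.20%. A match describes letters only and does not show that p53 was bound in these cells.

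MDM2 was read at 2 places on the plus strand of chromosome 12 (hg18). The upstream region, chr12:67490177-67490275, and the downstream region, chr12:67524020-67524251, are separated by 33744 bases. Annotation of that build was not used here, so the exon or untranslated region is not given. The downstream region holds 465 reads over the 6 libraries and the upstream one 95. The median over all regions of the table is 259 reads, so the upstream region is among the thinly covered ones.

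In the downstream region the MDM2 signal was 31.1 in endoderm G1, 26.6 in endoderm G1/S and 22.3 in endoderm S, against 136.2 in hESC G1, 55.2 in hESC G1/S and 93.3 in hESC S. All 3 endoderm libraries lay below all 3 hESC libraries, an arrangement found in 18.7% of all tested regions. The mean was 26.6 ± 4.41 in endoderm and 94.9 ± 40.5 in hESCs (SD, n = 3 libraries of different phase), and the fitted endoderm minus hESC difference was -1.71 ± 0.38 (SE) on the log2(signal + 1) scale. The ratio varied between phases, with counting intervals that overlap. Endoderm stood at 0.228 times the hESC signal in G1 (95% counting interval 0.161 to 0.318), 0.482 times in G1/S (0.257 to 0.857) and 0.238 times in S (0.124 to 0.420). In G1/S the hESC signal itself was low, at 0.405 times hESC G1 (0.292 to 0.553), while endoderm G1/S stood at 0.857 times endoderm G1 (0.452 to 1.55), an interval that includes no difference. Counting intervals cover counting error only. The fitted G1/S minus G1 difference over both types was -0.75 ± 0.47 (SE), and it is -0.13 after GC correction. The GC content of the MDM2 transcript end is 40.3%.

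**Figure D1:**
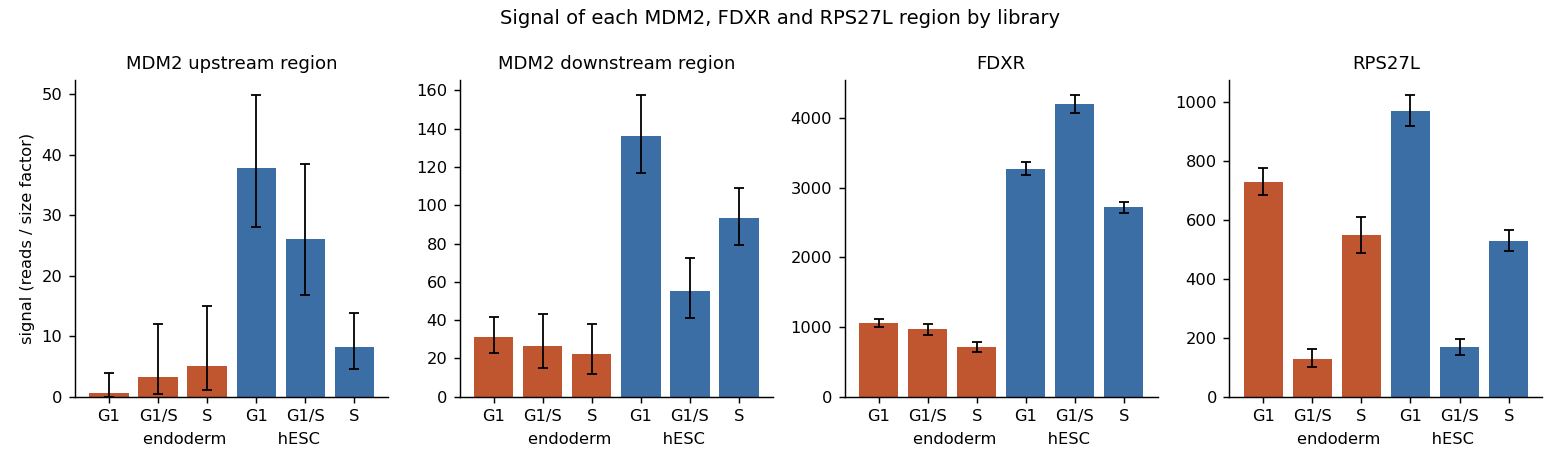
Signal (reads divided by the size factor of the library, linear axes) of the 4 regions in each of the 6 libraries, with endoderm in orange and hESC in blue and error bars showing 95% counting intervals. Endoderm lies below hESC in every phase for both MDM2 regions and FDXR, and RPS27L is lowest in both G1/S libraries, at 129.8 in endoderm and 167.6 in hESC.

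The upstream MDM2 region had signals of 0.690, 3.33 and 5.13 in endoderm (G1, G1/S, S), which rest on 1, 2 and 3 reads, against 37.8, 26.0 and 8.27 in hESCs (G1, G1/S, S), which rest on 50, 25 and 14 reads. Again no endoderm library reached the lowest hESC library, but each endoderm count lies at or under 3 reads, the number that a count of 0 allows. The mean was 3.05 ± 2.24 in endoderm and 24.0 ± 14.9 in hESCs, with a fitted difference of -2.59 ± 0.85 (SE). Endoderm over hESC was 0.0183 in G1 (0.000453 to 0.106), 0.128 in G1/S (0.0147 to 0.513) and 0.621 in S (0.114 to 2.22), so the difference in S is within counting error. Within hESCs the signal in S was 0.219 times that in G1 (0.112 to 0.402).

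The upstream region held a varying part of the MDM2 reads. Its share of the reads in both regions was 2.17% in endoderm G1 (1 of 46 reads, exact Clopper-Pearson 95% interval 0.0550 to 11.5%), 11.1% in endoderm G1/S (2 of 18, 1.38 to 34.7%) and 18.8% in endoderm S (3 of 16, 4.05 to 45.6%). In hESCs it was 21.7% in G1 (50 of 230, 16.6 to 27.6%), 32.1% in G1/S (25 of 78, 21.9 to 43.6%) and 8.14% in S (14 of 172, 4.52 to 13.3%). The interval of hESC S lies below those of hESC G1 and hESC G1/S, that of endoderm G1 lies below those of the same 2 hESC libraries, and the other endoderm intervals overlap all hESC intervals.

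Unnamed regions also lie within 10000 bases of the downstream MDM2 region. The nearest on the same strand, 1009 bases further on (chr12:67525261-67525479), had signals of 23.5, 3.33 and 18.8 in endoderm (G1, G1/S, S), against 30.3, 17.7 and 31.3 in hESCs (G1, G1/S, S), so the types overlap there. The next on the same strand lies 5888 bases away (chr12:67530140-67530245). Its signals were 1.38, 1.66 and 1.71 in endoderm against 27.2, 21.9 and 18.3 in hESCs (G1, G1/S, S). Each endoderm library lay below each hESC library, an arrangement found in 18.7% of all tested regions. The endoderm values are under the floor of 3 reads, a signal of 2.07, 4.99 and 5.13 in these libraries. The gene to which these reads belong is not named in the table.

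On the opposite strand an unnamed region (chr12:67524070-67524288) overlaps the downstream MDM2 region by 182 bases. Its signals were 336.3, 279.5 and 285.8 in endoderm (G1, G1/S, S), against 36.3, 534.1 and 622.0 in hESCs (G1, G1/S, S). It exceeds MDM2 in 5 libraries, and in hESC G1, where MDM2 is highest, it is at its lowest. Another region, 6413 bases away on the opposite strand, had 8.98, 4.99 and 8.56 in endoderm and 2.27, 7.29 and 55.5 in hESCs. RefSeq places CPM, a carboxypeptidase gene, on the opposite strand across the end of MDM2. Whether the counting used strand is not given in the sources used here, so reads of the overlapping pair may not be fully separated.

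**Figure D2:**
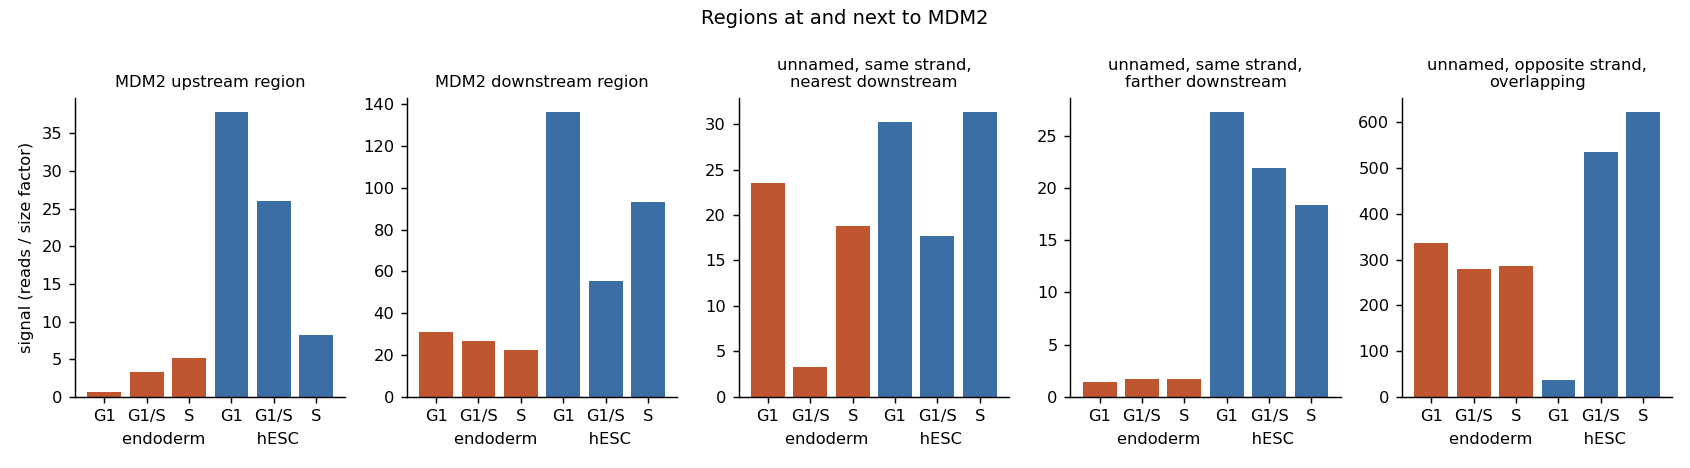
Signal (reads divided by the size factor, a separate linear axis per panel) in the 2 MDM2 regions, the 2 unnamed regions further on along the same strand and the overlapping unnamed region on the opposite strand, with endoderm in orange and hESC in blue. The farther same-strand region is low in endoderm, at 1.38 to 1.71, as MDM2 is, and the opposite-strand region has its lowest value, 36.3, in hESC G1.

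FDXR was read at a single place, chr17:70370224-70370521 on the minus strand (hg18), with 15485 reads over the 6 libraries. Its signal was 1055, 968.2 and 708.6 in endoderm (G1, G1/S, S), against 3272, 4199 and 2719 in hESCs (G1, G1/S, S). The lowest hESC library was far above the highest endoderm library, and 18.7% of all tested regions had all endoderm libraries below all hESC libraries. The mean was 911 ± 180 in endoderm and 3397 ± 748 in hESCs, with a fitted endoderm minus hESC difference of -1.90 ± 0.22 (SE) on the log2(signal + 1) scale. Endoderm over hESC was 0.322 in G1 (95% counting interval 0.304 to 0.342), 0.231 in G1/S (0.211 to 0.252) and 0.261 in S (0.235 to 0.288). In both types S was the lowest phase, at 0.672 times G1 in endoderm (0.601 to 0.749) and 0.831 times G1 in hESCs (0.797 to 0.866).

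At G1/S FDXR stood at 0.918 times G1 in endoderm (0.833 to 1.01) and 1.28 times G1 in hESCs (1.23 to 1.34), and the fitted G1/S minus G1 difference over both types was 0.12 ± 0.27 (SE). The endoderm interval includes no difference, and whether the types differ in this step was not tested. The FDXR transcript end has a GC content of 64.4%, and the fitted value is -0.39 after GC correction, with the opposite sign.

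RPS27L was read at chr15:61236642-61236818 on the minus strand (hg18), with 3796 reads. Its signal was 729.8, 129.8 and 547.7 in endoderm (G1, G1/S, S), against 970.6, 167.6 and 529.9 in hESCs (G1, G1/S, S). Both G1/S libraries lay below the other 4, as 9.76% of tested regions did, and the cell types overlapped. The mean was 469 ± 308 in endoderm and 556 ± 402 in hESCs, with a fitted endoderm minus hESC difference of -0.24 ± 0.25 (SE). Where MDM2 and FDXR separated the types, RPS27L separated the G1/S libraries from the rest in both.

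Relative to G1, RPS27L at G1/S was 0.178 in endoderm (95% counting interval 0.139 to 0.224) and 0.173 in hESCs (0.146 to 0.204). The intervals of the 2 types overlap almost fully. The fitted G1/S minus G1 difference was -2.50 ± 0.31 (SE) on the log2(signal + 1) scale, and 184 of 14657 regions (1.26%) had a value as low or lower. In S the signal was 4.22 times that in G1/S in endoderm (3.29 to 5.48) and 3.16 times in hESCs (2.67 to 3.76), and it stood at 0.751 times G1 in endoderm and 0.546 times G1 in hESCs. The low value was thus seen at 3 h in endoderm and at 2 h in hESCs, with higher values 3 h and 1 h later.

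The G1/S libraries also stood apart in base composition. Across 9897 named regions with a GC value, the rank correlation of GC content with a region's deviation from its mean over the libraries was 0.259 in endoderm G1/S and -0.409 in endoderm G1, and 0.431 in hESC G1/S and -0.00512 in hESC G1. The RPS27L transcript end is poor in GC, at 37.5%, and its G1/S minus G1 difference is -1.89 after GC correction. In the later GENCODE annotation, 172 of 819 windows of 30 bases (21.0%) from the last 300 bases of RPS27L transcripts also occur in transcripts of other genes, 13 of them in RPS27 or its pseudogenes, against 116 of 2017 (5.75%) for MDM2 and 0 of 870 for FDXR. The RPS27L windows pool the ends of 6 transcripts, and the shared ones occur in 1838 other genes. They were not placed in the region read here. Reads from such copies may be counted under RPS27L, and whether they were was not tested. An unnamed region 3460 bases away on the opposite strand had 11.7, 8.32 and 6.85 in endoderm and 0.757, 6.25 and 94.5 in hESCs (G1, G1/S, S).

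The S minus G1 comparison was not used to choose the genes, although it shares the G1 libraries with one that was. None of the 4 regions passed in limma. The differences were -0.10 ± 1.04 (SE) for upstream MDM2 (adjusted p = 0.999), -0.50 ± 0.47 for downstream MDM2, -0.42 ± 0.27 for FDXR and -0.64 ± 0.31 for RPS27L (adjusted p = 0.982 for each of the last 3). No region of the whole table passed in that comparison (0% of 14657, and 3.39% or 497 regions when p is not adjusted). In edgeR the count was 0, and in DESeq2 it was 1.

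**Figure D3:**
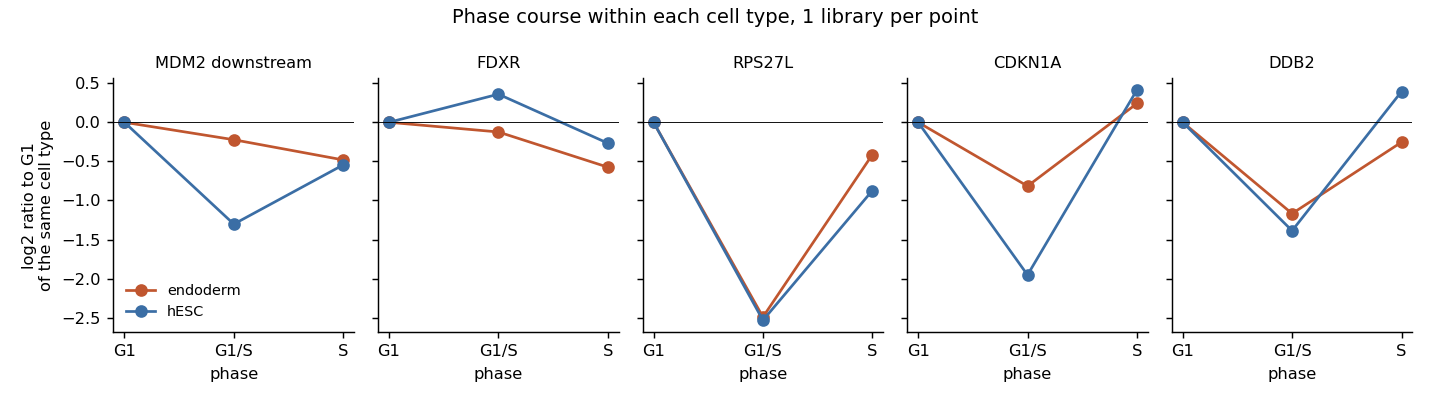
Log2 ratio of signal to the G1 library of the same cell type at G1, G1/S and S, 1 library per point, for MDM2 (downstream region), FDXR, RPS27L, CDKN1A and DDB2, with endoderm in orange and hESC in blue. RPS27L at G1/S lies at 0.178 times G1 in endoderm and 0.173 times in hESC, FDXR stays nearest to its G1 value there, and DDB2 and CDKN1A are low at G1/S in both types.

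CDKN1A, the cyclin-dependent kinase inhibitor p21 through which p53 arrests cells in G1, fell in endoderm. Its signal was 530.3, 301.1 and 626.5 in endoderm (G1, G1/S, S), against 1633, 421.7 and 2176 in hESCs (G1, G1/S, S). The groups overlap, because hESC G1/S lies below the G1 and S libraries of endoderm. The mean was 486 ± 167 in endoderm and 1410 ± 898 in hESCs, and the fitted difference on the log2 scale was -1.30 ± 0.31 (SE, limma adjusted p = 0.0344). The call was lost when 1 of the G1/S or S libraries of either type was left out. At G1/S minus G1 CDKN1A had -1.38 ± 0.38 (SE, limma adjusted p = 0.362), a value that did not pass.

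A list of 66 known p53 targets was read for comparison, of which 54 had a region. Without the 3 genes 51 remained, of which 9 (17.6%) fell and 6 (11.8%) rose in endoderm, and 36 did not pass. Over all tested regions 7.6% were called lower and 6.9% higher in endoderm, and 14.5% in either direction (34.2% at an unadjusted p under 0.05). The median log2 difference of the 51 was -0.36, against 0.02 over all regions, and 16 of them had all endoderm libraries below all hESC libraries (18.7% of all tested regions did) while 7 had them above (14.7% of all tested regions did). For the endoderm minus hESC difference, leaving out either library of a phase gives the same fitted value, so such fits are not separate checks. The count of calls rests on the G1/S libraries. It is 2 without either of them and 2 without both, all of them lower in endoderm, and 8 without either S library.

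DDB2, the damage sensor of nucleotide excision repair, fell to 253 ± 95.01 in endoderm, against 1092 ± 576 in hESCs (log2 difference -2.01 ± 0.27 SE, limma adjusted p = 0.00620). Its libraries were 332.8, 148.1 and 279.0 in endoderm and 1215, 464.4 and 1596 in hESCs, and DDB2 is the only one of the 15 called targets whose call was kept whichever library was left out. GADD45A, a growth arrest and repair factor, rose to 188 ± 58.8 in endoderm, against 53.4 ± 17.2 in hESCs (1.81, limma adjusted p = 0.0143). XPC, another sensor of nucleotide excision repair, had 195 ± 101 in endoderm and 128 ± 66.7 in hESCs and did not pass.

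Other called targets have known roles in cell death. TNFRSF10C, a decoy receptor for the death ligand TRAIL, fell by 1.81 on the log2 scale, to 86.6 ± 27.2 in endoderm, against 301 ± 68.6 in hESCs. PIDD1, a death domain protein listed under the name LRDD, fell by 1.31, and TP53I3, an oxidoreductase induced during p53-dependent apoptosis, fell by 1.66, to 416 ± 85.0 in endoderm, against 1342 ± 438 in hESCs. TP53INP1, a stress protein that promotes autophagy and cell death, rose by 2.49, to 40.8 ± 11.7 in endoderm, against 7.79 ± 6.83 in hESCs. Of the targets that did not pass, BAX and BBC3, which promote apoptosis, had 128 ± 25.8 and 1150 ± 375 in endoderm and 128 ± 15.6 and 1385 ± 416 in hESCs.

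The remaining called targets serve other functions. GPX1, a glutathione peroxidase, fell by 1.63, TRIM22, a tripartite motif ligase, by 1.69, NINJ1, a membrane adhesion protein, by 1.04, and PML, the scaffold of nuclear bodies, by 0.97 on the log2 scale. IGFBP3, which binds insulin-like growth factors, had a difference of 1.96, the stress factor ATF3 of 1.90, the receptor kinase EPHA2 of 1.47 and SESN2, a sestrin that restrains mTORC1, of 1.19, all higher in endoderm. The limma adjusted p-values of these genes, TNFRSF10C, PIDD1, TP53I3 and TP53INP1 lay between 0.00719 (TP53I3) and 0.0499 (PML). The PML call was lost in each of the 6 fits that left out a library, the TP53INP1 call in 5, and the IGFBP3, NINJ1, SESN2 and TRIM22 calls in 4. The ATF3, EPHA2, GADD45A, PIDD1, TNFRSF10C and TP53I3 calls were lost without either G1/S library and the GPX1 call without either S library.

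**Figure D4:**
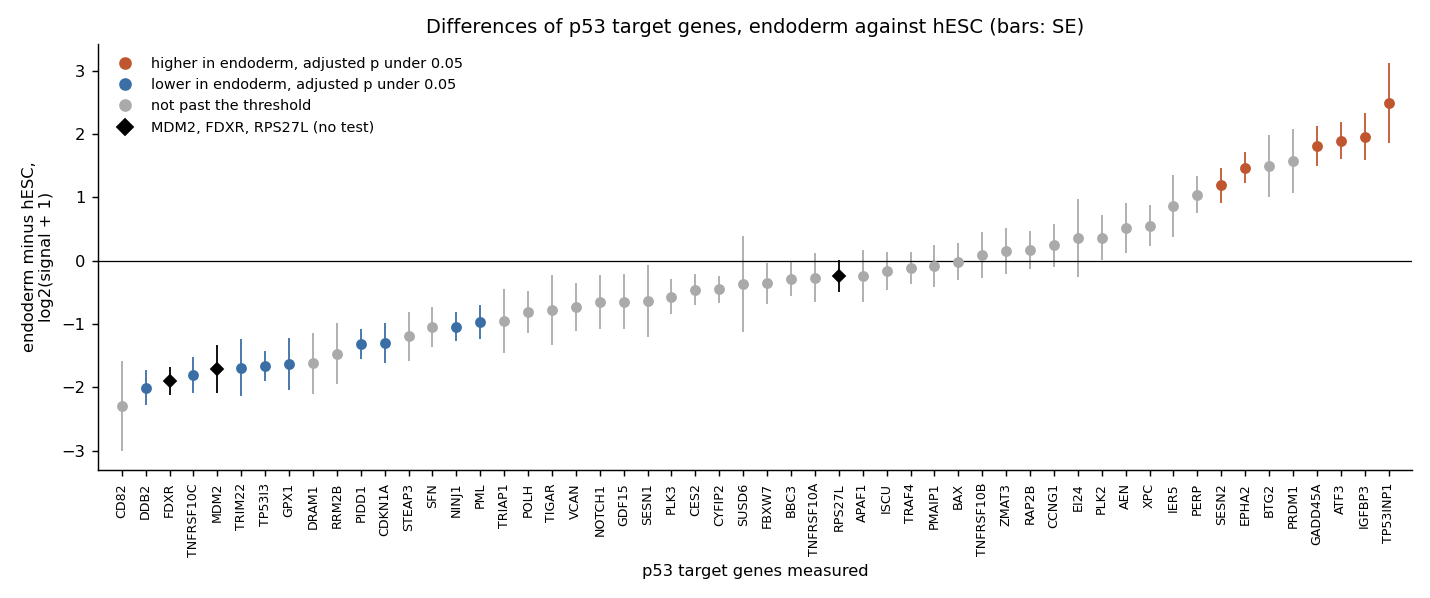
Endoderm minus hESC difference on the log2(signal + 1) scale, with SE bars, for the 54 measured p53 targets in order of the difference, with called genes in orange (higher in endoderm) or blue (lower), genes that did not pass in grey, and MDM2, FDXR and RPS27L as black diamonds without a test. FDXR at -1.90 and MDM2 at -1.71 lie among the lowest values, next to DDB2 at -2.01, RPS27L at -0.24 lies near the middle, and TP53INP1 at 2.49 is highest.

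No target was called in G1/S minus G1 (0 of 51, and 0% of 14657 regions, 13.7% or 2002 of which had an unadjusted p under 0.05). By the same comparison edgeR called 0 regions of the whole table and DESeq2 called 108. The median of the targets was -0.32, against 0.07 over all regions. Lower signals at G1/S than at G1 in both types were found in 23 of the 51 targets (45.1%) and in 28.99% of all regions, and lower signals in S than in G1 in both types in 19 of 51 (37.3%) and 24.8%. These shares use the same G1 libraries, and the base composition of the G1/S libraries given above differs in the same comparison. SESN1 was at 4.99 at G1/S, which is 3 reads, the floor of that library, and 60.8 in G1 of endoderm, and at 28.1 at G1/S and 46.1 in G1 of hESCs, the largest negative value among the other targets (-2.03 ± 0.69 SE, limma adjusted p = 0.362).

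Of 39 listed genes that act on p53 or MDM2, 29 were measured. In endoderm 4 (13.8%) rose and 1 (3.45%) fell, against 6.9% of all tested regions called higher and 7.6% called lower. These counts are small, and no set test was run. The median log2 difference was 0.29, against 0.02 over all regions. CDKN2A, one product of which (ARF) binds and inhibits MDM2, rose to 204 ± 137 in endoderm, against 34.5 ± 13.1 in hESCs (2.41 ± 0.42 SE, limma adjusted p = 0.0139). It was read at 1 region, which does not tell the ARF transcript from others of the gene. KMT5A, a methyltransferase of histone H4 and p53 listed as SETD8, rose by 2.52, TP53BP2, an ASPP family protein that binds p53, by 1.85, and the nucleolar protein NCL by 1.61. PRKDC, the catalytic subunit of the DNA-dependent protein kinase, fell by 3.37, to 22.3 ± 9.52 in endoderm, against 374 ± 356 in hESCs. The CDKN2A, KMT5A and PRKDC calls were kept whichever library was left out, the NCL call was lost when any of the G1/S or S libraries was left out, and the TP53BP2 call was lost in all 6 such fits. The ribosomal proteins RPL5, RPL11 and RPL23, which bind MDM2 when ribosome assembly is disturbed, did not pass, with log2 differences of 0.69, 0.14 and -1.12. The MDM2 paralog MDM4 had no region under its name.

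FDXR was also set beside the genes of its own pathway. Of 28 listed ferredoxin, iron-sulfur cluster and steroid synthesis genes 19 were measured, and of the 18 other than FDXR 1 rose and none fell in endoderm, near the 6.9% higher and 7.6% lower of all tested regions, with a median log2 difference of -0.09, against 0.02 over all regions. The ferredoxin FDX1, the electron acceptor of FDXR, had signals of 109.1, 166.4 and 135.2 in endoderm (G1, G1/S, S), against 56.7, 86.4 and 88.0 in hESCs (G1, G1/S, S). Every endoderm library lay above every hESC library, as in 14.7% of all tested regions, in the opposite order to FDXR. The difference of 0.83 ± 0.30 (SE) did not pass (limma adjusted p = 0.102). The second ferredoxin, FDX2, listed as FDX1L, had 889 ± 245 in endoderm and 937 ± 181 in hESCs. NFU1, which carries iron-sulfur clusters to target enzymes, rose to 573 ± 213 in endoderm, against 21.8 ± 6.06 in hESCs (4.62 ± 0.30 SE, limma adjusted p = 0.00135, kept whichever library was left out). CYP11A1, the steroid side-chain cleaving enzyme that FDXR and FDX1 supply with electrons, had a difference of -0.84 and did not pass.

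RPS27L has few relatives in the table. RPS27, its paralog, had no region under its name. RPS27A is a fusion of ubiquitin with a ribosomal protein that shares only part of the name. It had signals of 8.29, 9.98 and 5.13 in endoderm and 24.2, 19.8 and 30.1 in hESCs (-1.57 ± 0.53 SE, limma adjusted p = 0.0843). Its G1/S minus G1 difference was -0.02 ± 0.65 (SE), unlike the low G1/S values of RPS27L.

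The named regions whose log2(signal + 1) was most like that of each gene over the 6 libraries were found by Pearson correlation among 5794 candidates with a mean signal of at least 50. With downstream MDM2 these were CEP76 (r = 0.991), RASGRP2 (0.986), MRPL3 (0.985), FUBP3 (0.984) and NPAL3 (0.979). RASGRP2, for example, had 56.6, 36.6 and 35.9 in endoderm and 186.1, 71.8 and 120.5 in hESCs, with the same low hESC G1/S library. With FDXR they were ZNF589 (0.997), TMEM37 (0.997), VWCE (0.996), ANK1 (0.995) and FOXJ1 (0.995), all highest in hESC G1/S. With RPS27L they were WWC3 (0.991), RPL32 (0.980), MYO19 (0.978), MTHFD1 (0.977) and SUPT7L (0.974), which share the low G1/S libraries. The 6 points share cell type, phase and library, and the genes were picked as the highest of many candidates, so these values are descriptions.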

How the data were processed

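The authors deposited 1 table of signal values for 14686 regions in 6 libraries of 3' RNA-seq, sequenced on a Genome Analyzer IIx per the labels. Software in the submitters' processing notes is Bowtie 0.12.7, CASAVA 1.5 and DESeq 1.5.24, and the builds are hg18 and NCBI36. What each was used for is not given there. The deposited signal is linear: at a tolerance of 1e-06, 100% of values are whole reads divided by 1 constant per library, equal to the median-of-ratios size factor. The design allowed for linear or log values, and log2(value + 1) was used, which understates the changes of weak regions.

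Regions with log2(value + 1) of at least 1 in at least 3 libraries were kept (14657, with 29 removed) and fitted in limma 3.58.1 (R 4.3.3) with terms for cell type and phase and an intensity trend (residual degrees of freedom 2, prior 5.46). Adjustment ran over all regions by the Benjamini-Hochberg method at 0.05. All libraries come from 1 passage and none has a replicate of its type and phase, so a p-value here reflects only how these libraries scatter. On the recovered reads edgeR 4.0.16 called 1990 regions between the types, against 2125 in limma, and DESeq2 1.42.0 called 2780. Alternatives were other pseudocounts, filters, scalings and tests, each library left out, GC correction (GC of the last 500 bases of transcripts, known for 95.6% of named regions) and regions summed per gene. With 1 library left out, the other library of its phase does not bear on the fitted difference between the types. FDXR thus had -1.79 without hESC G1/S, without endoderm G1/S and without both. The members, the gene lists and the tests were chosen with earlier results of these data known. The text names the 3 genes, MDM4, CDKN1A, FDX1, the RPS27 family, each gene past the threshold in the lists of p53 targets, p53 regulators and iron-sulfur cluster genes and the 5 regions most like each gene. Marker genes are given as counts and sums, with THY1, COL1A1, PAX6, NCAM1 and GATA3 named after their values were seen. A further result under this rule is not reported here. XPC, BAX, BBC3, SESN1, RPL5, RPL11, RPL23, FDX2 and CYP11A1 were added to the text after their values were seen. A region's strand was read from the order of its coordinates. A gene with several regions was represented by the one with the highest mean. The floor is 3 reads per library, and promoters come from RefSeq.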

Additional observations from a re-analysis of the deposited data

Results flagged for a closer look

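Some phase ratios had opposite directions in the 2 cell types, each from 1 library per type and phase, and none of these differences between the types was tested. FDXR at G1/S was 0.918 times G1 in endoderm (95% counting interval 0.833 to 1.01, which includes no difference) and 1.28 times G1 in hESCs (1.23 to 1.34).

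In the upstream MDM2 region G1/S over G1 was 4.82 in endoderm (0.251 to 284, from 2 reads against 1) and 0.688 in hESCs (0.408 to 1.13). In the same region S over G1 was 7.44 in endoderm (0.597 to 390, from 3 reads against 1) and 0.219 in hESCs (0.112 to 0.402). Both endoderm intervals include no difference, and only the hESC S value lies outside counting error.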

How the results depend on the processing

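The endoderm minus hESC difference kept its sign in every alternative run, at -2.06 to -1.52 for downstream MDM2, -3.58 to -1.62 for upstream MDM2, -2.03 to -1.64 for FDXR and -0.39 to -0.16 for RPS27L, and so did the G1/S minus G1 difference of RPS27L (-2.63 to -1.89, the smallest after GC correction). FDXR at G1/S minus G1 changed sign with quantile normalisation (-0.30), GC correction (-0.39), without hESC G1 (-0.08) and without hESC G1/S. Of 195 values of the 4 regions under alternatives, 186 kept their sign, and upstream MDM2 in the phase comparisons gave the other 5 changes. Regions called between the types number 2125, 987 with a stricter filter that tests 5881 regions (fewer tested), 415 without both G1/S libraries and 419 to 2344 with 1 library left out, where 419 is without hESC G1/S, 571 without endoderm G1/S, 975 without hESC S and 1200 without endoderm S. The split is 1011 higher and 1114 lower, against 1342 and 894 without hESC G1. For G1/S minus G1 the count is 0, 108 with DESeq2 and 0 to 329 with 1 library left out (329 without hESC G1, 196 without endoderm G1). For S minus G1 it is 0, 1 with DESeq2 and 0 to 201 (201 without endoderm G1). Of the p53 targets 15 were called, 7 without the intensity trend, 2 without both G1/S libraries and 2 to 17 with 1 library left out. The cause of these shifts was not tested. The phase term pairs the types by phase, and without it 1825 regions and 11 p53 targets were called. Depth limits upstream MDM2, with 1 to 3 reads per endoderm library.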
